A study of Mus musculus with 3 samples.

Results

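The fast extensor digitorum longus (EDL) of the mouse hindlimb was compared with the slow soleus in gene abundance and in exon use. Genes were taken into the comparison when the pair of libraries held at least 20 of their reads, which left 494 genes of 48397 gene names in the table. Exon use was compared over exonic parts, the pieces into which the annotated and observed exons of a gene are divided. A part was taken when at least 30 reads covered it in both libraries, which left 2273 parts in 73 genes, of 27271 parts in 686 genes, once Ttn, Neb and Nrap had been set apart from the totals. The animals were wild-type male C57BL/6 mice of 8 weeks. The libraries compared came from whole EDL and from whole soleus, with no treatment named in the labels, and the series also holds a library from the apex of the heart. The sources used here do not give the number of mice behind each library.

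Skeletal muscle is a mixture of fibre types that differ in the myosin heavy chain they carry. Slow fibres use the Myh7 chain, contract slowly, resist fatigue and burn fat and sugar in their mitochondria. Fast fibres use the Myh2 (IIa), Myh1 (IIx) or Myh4 (IIb) chain, contract quickly and lean more on glycogen as the chain moves from IIa to IIb. Mouse EDL is known for IIb and IIx fibres, and mouse soleus for slow and IIa fibres. Many muscle proteins also come in several forms that one gene makes by keeping or skipping an exon, and which form is made can differ between fast and slow fibres. A whole muscle also holds vessels, nerve, connective tissue and blood, and in such bulk RNA fewer cells of a type and less RNA per cell cannot be told apart.

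Short coding exons that are kept or skipped as units were among the parts that passed a test of exon use, and 6 are printed here. Each matches a whole exon of the GENCODE mouse annotation. The exon is in capitals and the 21 bases of coding sequence on either side, from the neighbouring exons of the same transcript, are in lower case, all 5′ to 3′ on the gene's strand of GRCm38. Abcc9 and Phka1 passed the test on consensus reads, and Spag9, Kif1b, Mast2 and Opa1 passed it on full-length reads alone.
Abcc9 exon 19 of 41, chr6:142648027-142648065, minus strand: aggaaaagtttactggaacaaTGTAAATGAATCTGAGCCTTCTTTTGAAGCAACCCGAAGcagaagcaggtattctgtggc
Phka1 exon 19 of 33, chrX:102557096-102557272, minus strand: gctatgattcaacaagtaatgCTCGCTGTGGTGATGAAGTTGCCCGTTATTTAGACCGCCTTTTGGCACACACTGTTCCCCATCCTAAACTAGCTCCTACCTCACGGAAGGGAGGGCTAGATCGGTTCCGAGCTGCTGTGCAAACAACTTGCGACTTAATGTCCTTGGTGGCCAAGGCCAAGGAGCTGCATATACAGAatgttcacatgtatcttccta
Spag9 exon 18 of 21, chr11:94113263-94113301, plus strand: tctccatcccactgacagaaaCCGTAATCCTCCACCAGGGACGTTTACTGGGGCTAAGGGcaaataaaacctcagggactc
Kif1b exon 14 of 49, chr4:149261160-149261201, minus strand: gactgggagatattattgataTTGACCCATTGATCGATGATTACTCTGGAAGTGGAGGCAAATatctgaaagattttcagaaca
Mast2 exon 7 of 30, chr4:116333413-116333433, minus strand: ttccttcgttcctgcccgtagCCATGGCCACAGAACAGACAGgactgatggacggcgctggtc
Opa1 exon 6 of 29, chr16:29597586-29597696, plus strand: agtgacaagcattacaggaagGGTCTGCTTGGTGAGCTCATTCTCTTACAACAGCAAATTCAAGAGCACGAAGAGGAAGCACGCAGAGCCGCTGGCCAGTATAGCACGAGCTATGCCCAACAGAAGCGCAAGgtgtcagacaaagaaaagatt
The exons are 39 nt (Abcc9), 177 nt (Phka1), 39 nt (Spag9), 42 nt (Kif1b), 21 nt (Mast2) and 111 nt (Opa1) long. All 6 lengths are multiples of 3, so the reading frame is the same on the far side whether the exon is kept or skipped.

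With 1 library for each muscle there was no replicate to measure spread, and genes were given no p-value. Intervals are exact, at 95%, and cover counting error only. The unit of count is the consensus read, into which the Iso-Seq software merges full-length reads of like sequence, and its number per gene is not a number of molecules. The EDL library held 19826 consensus reads in 2320 genes, against 17459 in 2097 genes for soleus, so 1 read stood for 50.4 RPM in EDL and 57.3 RPM in soleus, where RPM sets the reads in genes of each library to one common total. The 494 genes took 70.7% of the EDL reads and 71.5% of the soleus reads, with a median of 33 reads in the pair. The cDNA had been selected at 5 to 10 kb, and 17 of the 482 genes with a known transcript length had a longest transcript under 4000 nt. Among these 482 genes the Spearman correlation of the log2 ratio with the longest transcript was 0.022, a value across genes that share the 2 libraries. By intervals that excluded equal abundance, 1 was higher and 3 lower in EDL of 36 genes with a longest transcript under 5000 nt, and 9 were higher and 22 lower of 254 genes at 5000 to 7000 nt. Of 144 genes at 7000 to 10000 nt, 9 were higher and 10 lower, and of 48 longer genes, Ttn and Neb among them, 5 were higher and 1 lower. At the minimum itself stood 27 genes with 20 reads in the pair, with a median of 11 EDL reads (range 1 to 18). Just outside it stood 23 genes with 19 reads, with a median of 11 EDL reads (range 7 to 14).

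By the estimates from consensus reads, most genes lay near equal abundance in EDL and soleus. With a median of 33 reads in the pair, an interval that includes equal abundance does not show equality. By full-length reads, described below, 251 genes were higher and 71 lower in EDL of 610. The log2 ratio of RPM, EDL over soleus, had a median of -0.06 over the 494 genes and quartiles of -0.42 and 0.32, and 353 genes (71.5%) lay within 1.5-fold. The interval lay wholly beyond 2-fold for 9 genes, 1.82% of those compared: 2 (0.405%) were higher in EDL and 7 (1.42%) lower in EDL. By the looser rule that the interval excludes equal abundance, 60 genes (12.1%) differed, 24 (4.86%) higher and 36 (7.29%) lower in EDL. These looser shares are the background for the counts in gene lists below. Median-of-ratios scaling gave a factor of 1 for each library over 1668 genes, so in effect it compared reads with no correction for depth. That raised every log2 ratio by 0.18, and the looser rule then gave 34 genes higher and 30 lower in EDL. The plot of ratio against read number shows these genes over the whole range of abundance.

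**Figure D1:**
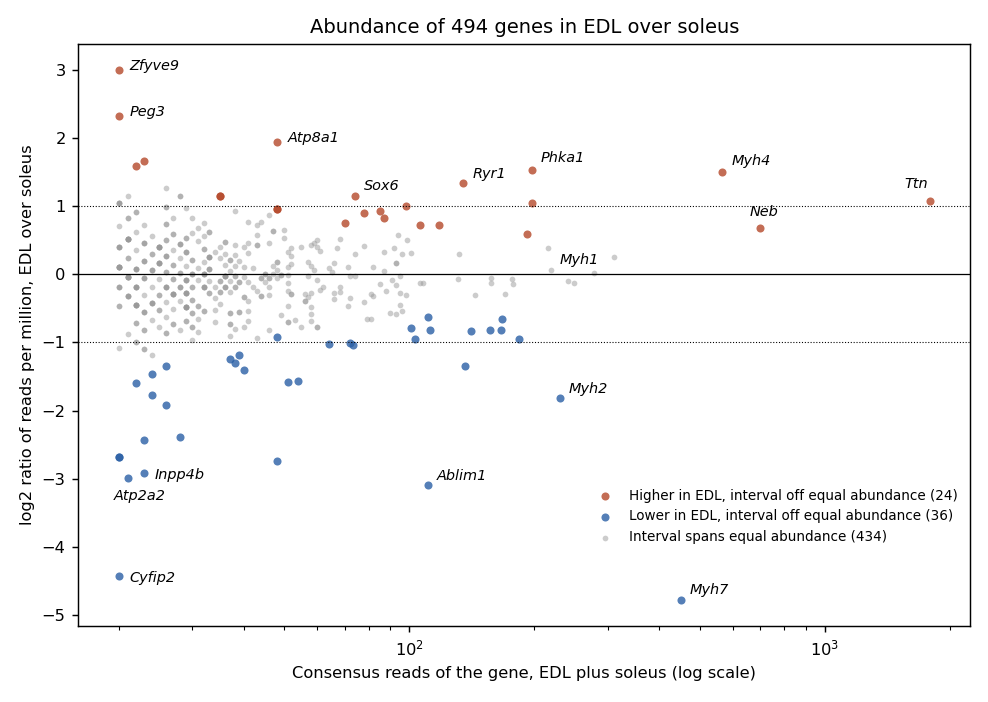
Log2 ratio of RPM, EDL over soleus (y axis), against the consensus reads of the gene in the pair (x axis, log scale) for 494 genes. Orange points are the 24 genes higher in EDL and blue points the 36 lower in EDL by intervals that exclude equal abundance, grey points are the other 434, and dotted lines mark 2-fold. Atp2a2, with 0 EDL reads, is drawn at its bound from 3 counts, and Myh7 and Cyfip2 lie lowest.

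The myosin heavy chains set EDL and soleus apart and fitted the muscles' labels. Myh4 (chr11:67238029-67260446), the IIb chain, had 432 reads in EDL against 135 in soleus, 2.82-fold higher in EDL (2.32 to 3.44). Myh7 (chr14:54970684-54994626), the slow chain, had 18 reads in EDL against 433 in soleus, 27.3-fold lower in EDL (17.1 to 46.5). Myh2 (chr11:67171027-67197517), the IIa chain, had 56 reads in EDL against 174 in soleus, 3.53-fold lower in EDL (2.60 to 4.86). Myh1 (chr11:67200052-67224575), the IIx chain, had 119 reads in EDL against 100 in soleus, and its interval included equal abundance. The genes of these 4 chains have longest transcripts of 6016 to 6230 nt, so their reads can be set side by side.

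Of the 625 EDL reads from the 4 adult chains, Myh4 gave 69.1% (65.3 to 72.7), Myh1 19.04% (16.03 to 22.3), Myh2 8.96% (6.84 to 11.5) and Myh7 2.88% (1.72 to 4.51). Of the 842 soleus reads, Myh7 gave 51.4% (48.0 to 54.9), Myh2 20.7% (17.98 to 23.6), Myh4 16.03% (13.6 to 18.7) and Myh1 11.9% (9.77 to 14.3). The EDL library was thus led by IIb, then IIx, and the soleus library by the slow chain, with IIa next. Full-length reads were also counted, over the part of each gene that the most reads cover, and there the leading chain took more: Myh4 had 92.9% (92.6 to 93.3) of 20870 EDL reads and Myh7 67.6% (67.2 to 68.1) of 42483 soleus reads. The IIx share was then 5.37% (5.06 to 5.68) in EDL and 6.15% (5.93 to 6.39) in soleus, the reverse of the order by consensus reads. Myh6, given below with the slow-twitch genes, was not part of these sums. The sources used here do not say how a read that matched more than 1 of the neighbouring Myh genes was counted.

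Most fast-fibre genes besides the heavy chains are short and did not reach the minimum. Of 17 fast-twitch genes 5 did, Myh4, Myh1 and Myh2 with Myl1 and Tnnt3. Of these, Myh4 and Myl1 were higher and Myh2 lower in EDL, and the median log2 ratio was 0.65. Myl1, the fast essential light chain, had 25 reads in EDL against 10 in soleus, 2.20-fold higher in EDL (1.02 to 5.14). Tnnt3, fast troponin T, had 32 reads in EDL against 18 in soleus, and its interval included equal abundance. The longest transcripts of Myl1 and Tnnt3, at 1082 nt and 1079 nt, lie far under the 5 to 10 kb selected. Below the minimum, Tpm1 (tropomyosin) had 16 reads in EDL against 2 in soleus, Pvalb, the calcium buffer parvalbumin, 8 and 1, Mylk2, the skeletal light chain kinase, 7 and 1, and Atp2a1, the fast calcium pump, 6 and 0. All 4 had more reads in EDL, on counts too small for a ratio under the rule.

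Of 12 slow-twitch genes 4 reached the minimum, with 0 higher in EDL and 2, Myh7 and Atp2a2, lower. The median log2 ratio was at most -1.61, since Atp2a2 enters it at its bound. Atp2a2 (chr5:122453513-122502225), the calcium pump that slow fibres share with the heart, had 0 reads in EDL against 21 in soleus, at least 7.95-fold lower in EDL against a floor of 3 counts in the EDL library, with an exact limit of 5.91. Myh6, the cardiac alpha chain, had 30 reads in EDL against 31 in soleus, and Mybpc1, the slow form of myosin-binding protein C, had 18 in EDL and 11 in soleus, and neither interval excluded equal abundance. The other slow genes were at or near 0 in both libraries: Myl2, Tnni1, Tnnc1 and Casq2 had 0 reads in each, and Tnnt1 and Myl3 had 0 in EDL and 1 in soleus. Tpm3 had 1 read in EDL and 0 in soleus, and Myh7b had 2 in EDL and 1 in soleus. Summed over the lists, fast-twitch genes had 710 reads in EDL against 443 in soleus, and slow-twitch genes 69 in EDL and 499 in soleus. These sums rest largely on the heavy chains given above. Myh4 gave 432 of the fast-twitch reads in EDL and 135 in soleus, and Myh2, lower in EDL, gave 56 and 174. Myh7 gave 18 of the slow-twitch reads in EDL and 433 in soleus.

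Phka1, which acts in glycogen breakdown, was higher in EDL. Of 22 genes for glycogen use and glycolysis 4 reached the minimum, 2 were higher and 0 lower in EDL, and their median log2 ratio was 0.77. Phka1 (chrX:102513975-102644246), a regulatory subunit of phosphorylase kinase, the enzyme that switches on glycogen breakdown, had 151 reads in EDL against 46 in soleus, 2.89-fold higher in EDL (2.07 to 4.11). Ppp1r3a, which brings protein phosphatase to glycogen, had 61 reads in EDL against 38 in soleus, and Hk2, the hexokinase that traps glucose in the cell, had 55 in EDL and 53 in soleus. Neither of these intervals excluded equal abundance. By full-length reads, scaled to their own total over genes, the ratios were 7.68 for Phka1, 3.64 for Ppp1r3a and 0.919 for Hk2, where the median log2 ratio of all 610 genes with at least 20 such reads was 0.50.

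In excitation-contraction coupling, the step from membrane depolarisation to calcium release, Ryr1 stood out. Ryr1, the calcium release channel of skeletal muscle, had 100 reads in EDL against 35 in soleus, 2.52-fold higher in EDL (1.70 to 3.81). Cacna1s, its voltage sensor, had 129 reads in EDL against 87 in soleus, 1.31-fold (0.987 to 1.73), so equal abundance was just inside the interval. With median-of-ratios scaling 2 genes of this list were higher in EDL. Scn4a, the sodium channel of the muscle action potential, had 56 reads in EDL against 40 in soleus, and Srl, a calcium-binding protein of the sarcoplasmic reticulum, 30 in EDL and 17 in soleus. Of 16 genes 5 reached the minimum, 1 was higher and 0 lower in EDL, and the median log2 ratio was 0.38.

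Large sarcomere proteins split in both directions. Of 29 genes 14 reached the minimum, 4 were higher and 5 lower in EDL, and the median log2 ratio was 0.10. At the M-band, which ties thick filaments together, Myom2 had 68 reads in EDL against 30 in soleus, 1.996-fold higher in EDL (1.28 to 3.18). Its relative Myom3 had 15 reads in EDL against 39 in soleus, 2.95-fold lower in EDL (1.59 to 5.77), and Myom1 had 82 reads in EDL against 75 in soleus, with an interval that included equal abundance. Of these 3 relatives, Myom2 was higher and Myom3 lower in EDL.

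At the Z-disc and the fibre ends, 4 genes were lower in EDL. Actn2, an alpha-actinin of the Z-disc, had 12 reads in EDL against 25 in soleus, 2.37-fold lower in EDL (1.15 to 5.17). Xirp1, an actin-binding Xin repeat protein of fibre ends and damaged sarcomeres, had 26 reads in EDL against 47 in soleus, 2.05-fold lower in EDL (1.25 to 3.45), whereas its relative Xirp2 had 121 in EDL against 71 in soleus, 1.501-fold higher in EDL (1.11 to 2.04). Flnc, the muscle filamin, had 55 reads in EDL against 86 in soleus, 1.78-fold lower in EDL (1.25 to 2.54), and Nrap, which links actin to the membrane, had 68 and 116, 1.94-fold lower in EDL (1.42 to 2.65). Ttn, the titin spring, had 1264 reads in EDL against 527 in soleus, a 2.11-fold excess in EDL (1.91 to 2.34), and Neb, the nebulin ruler of the thin filament, 451 against 249, 1.595-fold higher in EDL (1.36 to 1.87). Both exceed the length a read can span. Over its best covered part, a count chosen after seeing the data, Ttn had 342 consensus reads in EDL and 270 in soleus and Neb 259 in EDL and 205 in soleus. By that count both intervals included equal abundance, with log2 ratios of 0.16 for Ttn and 0.15 for Neb.

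In the costamere, which ties the outer sarcomeres to the membrane, genes were called about as often as over all genes. Of 36 genes of it and of the dystrophin complex 16 reached the minimum, 1 was higher and 1 lower in EDL, and 14 were neither. Over all 494 genes 60 (12.1%) were higher or lower. Dag1, the dystroglycan that binds laminin outside the fibre, had 26 reads in EDL against 46 in soleus, 2.01-fold lower in EDL (1.22 to 3.39). Ano5, a membrane protein needed for repair of torn fibres, had 53 reads in EDL against 25 in soleus, 1.87-fold higher in EDL (1.14 to 3.14). Plec, the linker plectin, had 82 reads in EDL against 88 in soleus, and Dst, the linker dystonin, 80 and 77. Dmd itself, dystrophin, had 30 reads in EDL against 17 in soleus, with an interval that included equal abundance.

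Adaptors that anchor actin included 2 of the 7 genes lower in EDL beyond 2-fold. Ablim1 (chr19:57032733-57314919), an actin-binding LIM protein, had 13 reads in EDL against 98 in soleus, 8.56-fold lower in EDL (4.78 to 16.6). By full-length reads it had 13 in EDL and 966 in soleus, 60.1-fold lower in EDL. Cyfip2 (chr11:46193850-46312859), a part of the complex that starts actin branching, had 1 read in EDL and 19 in soleus, 21.6-fold lower in EDL (3.43 to 896). Of 26 genes in this list 9 reached the minimum, and the other 7, among them Svil with 69 reads in EDL against 75 in soleus and Lmo7 with 36 and 42, were neither higher nor lower.

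Of 21 microtubule and vesicle transport genes 12 reached the minimum, 0 were higher and 4 lower in EDL, with a median log2 ratio of -0.60. Kif5b, the heavy chain of conventional kinesin, had 5 reads in EDL against 23 in soleus, 5.22-fold lower in EDL (1.94 to 17.6). Clip1, which follows growing microtubule ends, had 65 reads in EDL against 101 in soleus, 1.76-fold lower in EDL (1.28 to 2.45). Clasp1, a stabiliser of microtubule ends, had 8 reads in EDL against 18 in soleus, 2.56-fold lower in EDL (1.06 to 6.79). Tbc1d4, a regulator of glucose transporter vesicles in the response to insulin, had 13 reads in EDL against 26 in soleus, 2.27-fold lower in EDL (1.13 to 4.81). With median-of-ratios scaling Clasp1 and Tbc1d4 lost the call, which left 2 of the 4.

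**Figure D2:**
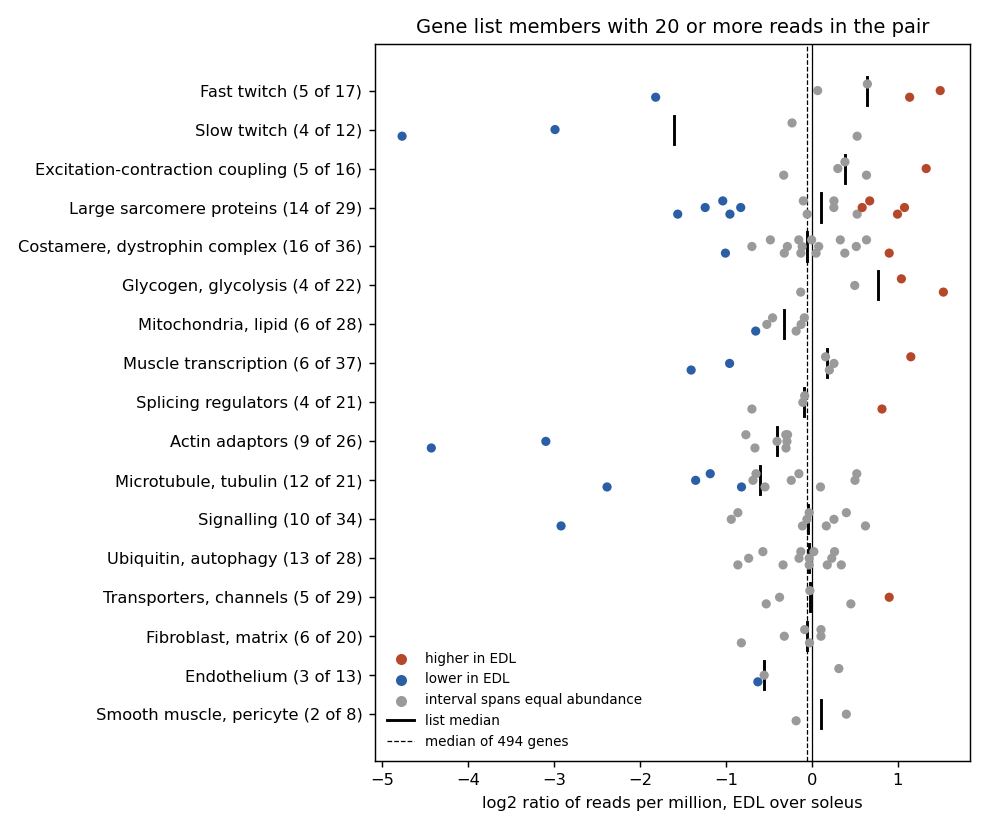
Log2 ratio of RPM, EDL over soleus, for each member of 17 gene lists with at least 20 reads in the pair. Each point is a gene, orange where higher in EDL, blue where lower in EDL and grey where the interval included equal abundance. Black bars are list medians and the dashed line the median of 494 genes, and the slow-twitch list has the lowest median, at most -1.61 with Atp2a2 drawn at its bound.

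Regulators of fibre identity differed gene by gene. Of 37 muscle transcription genes 6 reached the minimum, 1 was higher and 2 lower in EDL. Sox6, a repressor of slow-fibre genes, had 53 reads in EDL against 21 in soleus, 2.22-fold higher in EDL (1.32 to 3.88). Mef2c, an activator of muscle genes, had 38 reads in EDL against 65 in soleus, 1.94-fold lower in EDL (1.28 to 2.98). Esrrg, a nuclear receptor that activates oxidative metabolism, had 12 reads in EDL against 28 in soleus, 2.65-fold lower in EDL (1.305 to 5.72). Mef2a, a relative of Mef2c, had 52 reads in EDL against 41 in soleus and was neither higher nor lower.

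Of 21 splicing regulators 4 reached the minimum, and Mbnl1 alone excluded equal abundance. Mbnl1, the muscleblind protein that moves many exons to their adult choice, had 58 reads in EDL against 29 in soleus, 1.76-fold higher in EDL (1.11 to 2.85). Rbfox2 had 21 reads in EDL against 30 in soleus, and Rbm20, the titin splicing repressor, 19 and 18.

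For mitochondrial and lipid genes, 6 of 28 reached the minimum, 0 were higher and 1 lower in EDL, and the median log2 ratio was -0.32. Plin4, a coat protein of lipid droplets, had 70 reads in EDL against 97 in soleus, 1.57-fold lower in EDL (1.15 to 2.17). Acacb, which makes the malonyl-CoA that brakes fat burning, had 43 reads in EDL against 52 in soleus, and Gpam had 127 and 122. Of 34 signalling genes 10 reached the minimum and 1, Inpp4b (chr8:81342556-82127914), was lower in EDL. Inpp4b, a phosphatase of inositol lipids, had 3 reads in EDL against 20 in soleus, 7.57-fold lower in EDL (2.25 to 39.8). Of 28 ubiquitin and autophagy genes 13 reached the minimum and 0 were higher or lower. Of 29 transporters and channels 5 reached it, and 1, Ano5, was higher in EDL.

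Outside these groups, the highest ratios rested on few reads. Zfyve9, an endosomal adaptor of TGF-beta receptors, had 18 reads in EDL against 2 in soleus, 7.93-fold higher in EDL (1.90 to 70.4). Peg3, an imprinted zinc finger gene, had 17 reads in EDL against 3 in soleus, 4.99-fold higher in EDL (1.44 to 26.6). Atp8a1, a lipid flippase, had 39 reads in EDL against 9 in soleus, 3.82-fold higher in EDL (1.82 to 8.96). Also among the 15 highest were Ston2, Ranbp2, Mylk4 and Mib1, with 1.94-fold to 3.17-fold ratios.

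Among the 15 lowest, Myh10, a nonmuscle myosin chain, had 4 reads in EDL against 19 in soleus, 5.39-fold lower in EDL (1.79 to 21.8). Musk, the receptor kinase that builds the nerve-muscle junction, had 6 reads in EDL against 16 in soleus, 3.03-fold lower in EDL (1.13 to 9.45), and it lost the call with median-of-ratios scaling. Golga4, a tether of the Golgi, had 14 reads in EDL against 37 in soleus, 3.001-fold lower in EDL (1.59 to 6.01). Socs6, a suppressor of cytokine signalling, and 6430548M08Rik each had 3 reads in EDL against 17 in soleus, 6.43-fold lower in EDL (1.86 to 34.3). Lpgat1 and Nuak1 were also in this set, at 3.79-fold and 3.41-fold lower in EDL. The plot of 28 of these 30 genes shows how wide the intervals were where the smaller count was under 10.

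**Figure D3:**
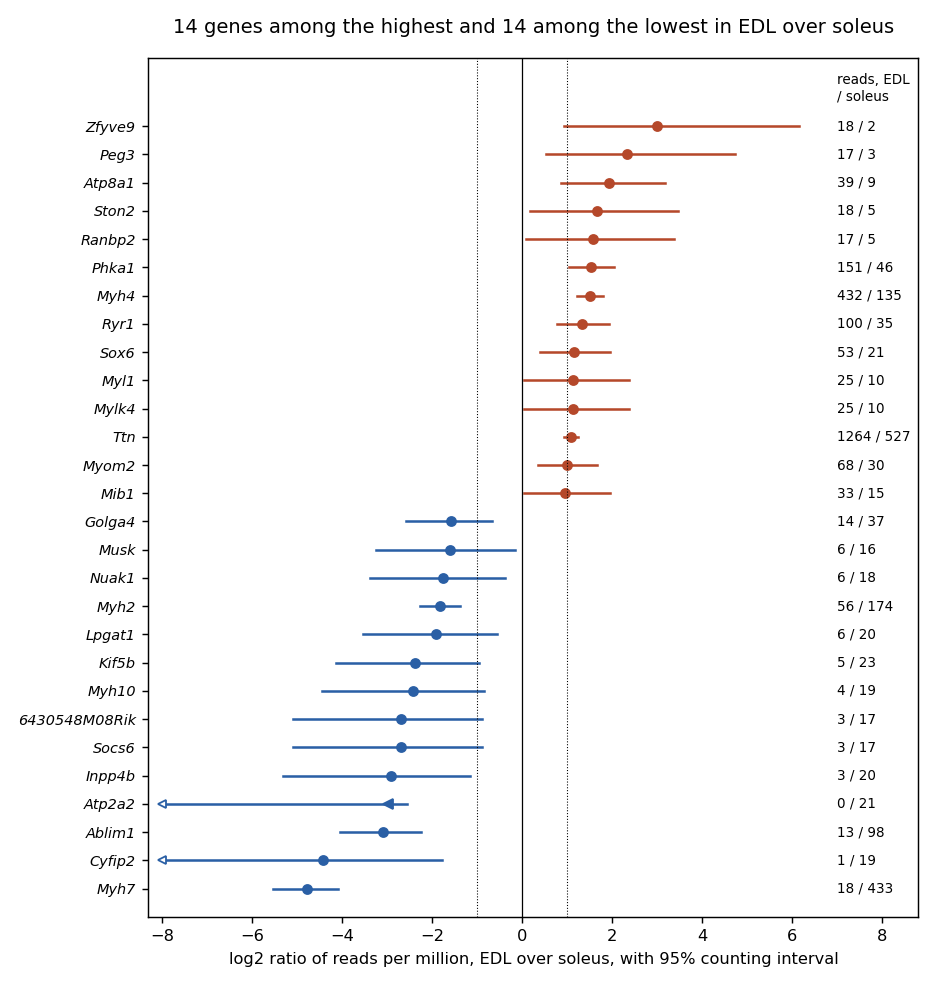
Log2 ratio of RPM, EDL over soleus, with 95% counting intervals for 14 of the 15 genes with the highest and 14 of the 15 with the lowest ratio among those whose interval excluded equal abundance. Numbers at the right are consensus reads in EDL and soleus. The filled triangle is the bound for Atp2a2 at 0 EDL reads, open triangles mark intervals that run off the axis, and dotted lines mark 2-fold. Ttn and Myh4 have the narrowest intervals among the genes higher in EDL.

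Markers of other cell types had few reads. Of 20 fibroblast and matrix genes 6 reached the minimum and 0 were higher or lower, with summed reads of 133 in EDL and 128 in soleus. Of 13 endothelial genes 3 did, with summed reads of 116 in EDL and 129 in soleus, and Adgrf5, a receptor of vessels, had 47 in EDL and 64 in soleus, 1.55-fold lower in EDL (1.04 to 2.30), a call that was lost with median-of-ratios scaling. Smooth muscle and pericyte markers summed to 28 reads in EDL against 22 in soleus, nerve and Schwann cell markers to 13 and 11, blood and immune markers to 19 and 16, adipocyte markers to 5 and 4, and satellite cell markers to 3 and 2. Markers such as Pecam1, Acta2, Adipoq, Ptprc and Pax7 had 0 reads in both libraries. With cDNA selected at 5 to 10 kb, 0 reads of a shorter marker transcript does not show absence of its cells. The part of these cell types in the ratios above was not tested.

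By full-length reads 610 genes reached the minimum of 20 and many more ratios excluded equal abundance, 251 higher and 71 lower in EDL, and the median log2 ratio was 0.50, against -0.06 over the 494 genes by consensus reads. Those of 1 consensus read are not independent of each other, so these intervals are too narrow. Myh7 had 55 such reads in EDL and 28722 in soleus, 422-fold lower in EDL, and Myh2 had 299 in EDL and 7999 in soleus, 21.6-fold lower in EDL. Myh4 had 19396 in EDL against 3148 in soleus, 7.62-fold higher in EDL. Of 56 genes higher or lower by consensus reads that could be counted this way, 54 kept direction and call. Clasp1 and Ttn lost the call. Ttn had 1707 full-length reads over its best covered part in EDL and 2160 in soleus. Scaled, that is a ratio of 0.978 (0.917 to 1.04), an interval that included equal abundance.

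Most exonic parts outside Ttn, Neb and Nrap differed little in use between EDL and soleus. The use of a part is the share of the consensus reads covering it that hold it. It differed by under 10 percentage points in 2228 of 2273 parts (98.0%) and by 20 points or more in 11. Every read in both libraries held 1210 parts (53.2%). At 10% to 90% use in at least 1 library were 109 parts (4.80%) in 44 genes. A part was called at a difference of at least 20 points with an adjusted p under 0.05 in Fisher's exact test, two-sided, adjusted by Benjamini-Hochberg over all 2480 parts tested. The call was made for 5 parts (0.22%) in 5 genes, 2 more used and 3 less used in EDL, against 21 of 2480 parts (0.847%) with Ttn, Neb and Nrap included. At the minimum itself, 105 parts in 22 genes had 30 reads in the less covered library and differed by -12.2 to 34.2 points (median 0). Just outside it, 92 parts in 23 genes had 29 reads and differed by -9.09 to 19.97 points (median 0). The test compares the 2 libraries, not the muscles in general. It treats each consensus read as an independent draw, an assumption that was not tested.

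**Figure D4:**
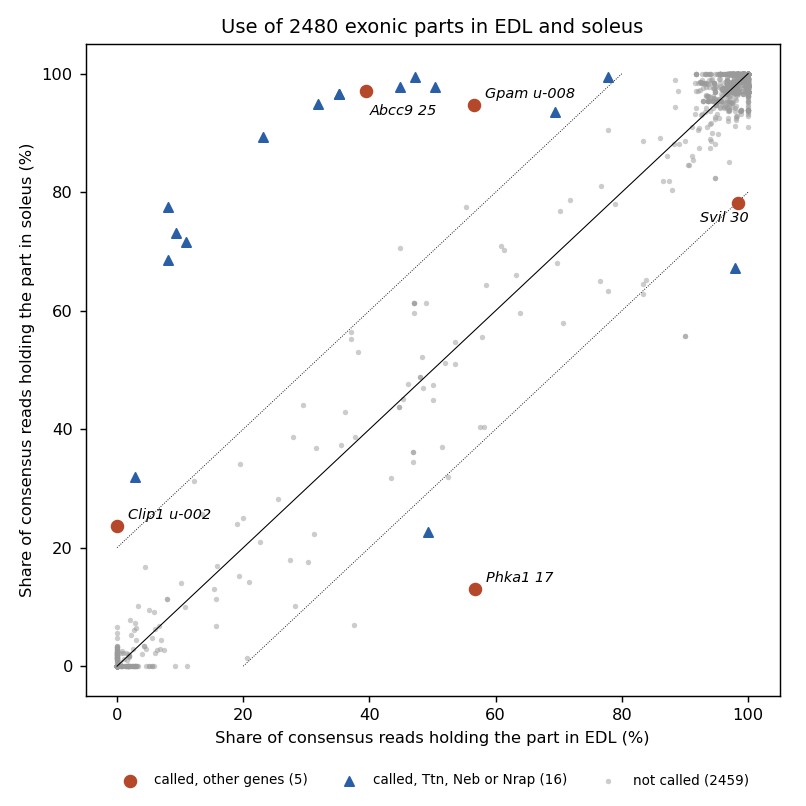
Share of consensus reads holding each of 2480 exonic parts in EDL (x axis, %) and in soleus (y axis, %). Orange circles are the 5 called parts outside Ttn, Neb and Nrap, blue triangles the 16 called parts of those 3 genes, grey points parts that were not called. The diagonal is equal use and dotted lines mark 20 points, and nearly all parts sit in the corners at full use or no use.

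Outside Ttn, Neb and Nrap, Abcc9 showed the widest difference in use. Abcc9 encodes SUR2, the sulphonylurea receptor that regulates the ATP-sensitive potassium channel of muscle. Its part 25, the 39-nt exon printed above, was held by 15 of 38 reads in EDL, 39.5% (24.04 to 56.6), against 33 of 34 in soleus, 97.1% (84.7 to 99.9). The difference, EDL minus soleus, was -57.6 points (adjusted p = 1.71e-05, Fisher's exact test). All 21 covering reads of the heart held it. Full-length reads gave 23 of 72 in EDL (31.9%) and 99 of 101 in soleus (98.0%).

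The gene as a whole was even between the muscles, with 38 reads in EDL against 34 in soleus, while its forms were not. Reads lacking the exon numbered 23 in EDL against 1 in soleus, 20.3-fold higher in EDL in RPM (3.29 to 834). Reads holding it numbered 15 in EDL and 33 in soleus, 2.498-fold lower in EDL (1.32 to 4.95). In the annotation 4 coding transcripts of Abcc9 hold the exon and 1 skips it.

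Phka1 differed in use as well as in abundance. The alpha subunit of phosphorylase kinase is known, first from the rabbit, in a long form of fast muscle and a shorter form of slow muscle and heart that lacks an internal segment. Part 17, the 177-nt exon printed above, was held by 84 of 148 reads in EDL, 56.8% (48.4 to 64.9), against 6 of 46 in soleus, 13.04% (4.94 to 26.3). Use was 43.7 points higher in EDL (adjusted p = 1.31e-05, Fisher's exact test). In the heart 6 of 30 reads held it. Full-length reads gave 1229 of 2176 in EDL (56.5%) and 18 of 351 in soleus (5.13%).

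The 2 forms of Phka1 therefore differed unequally between the muscles. Reads holding the exon numbered 84 in EDL against 6 in soleus, 12.3-fold higher in EDL in RPM (5.43 to 34.5). Reads lacking it numbered 64 in EDL and 40 in soleus, 1.41-fold (0.935 to 2.15), an interval that included equal abundance. In the annotation 5 coding transcripts hold the exon and 1 skips it.

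Of the other 3 called parts, 2 are absent from the annotation the authors used and were found in the reads. In Clip1, part u-002 (chr5:123661506-123661700, 195 nt) was held by 0 of 58 EDL reads, a count that allows up to 5.17% by the floor of 3 counts and up to 6.16% by the exact interval, and by 21 of 89 soleus reads, 23.6% (15.2 to 33.8). The difference was -23.6 points (adjusted p = 0.0017, Fisher's exact test), and 14 of 42 heart reads held the part. By full-length reads it was 0 of 141 in EDL and 55 of 426 in soleus, a difference of -12.9 points, which fell short of the 20-point bar.

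Gpam, the mitochondrial enzyme that starts glycerolipid synthesis, had such a part as well. Its part u-008 (chr19:55102957-55103345, 389 nt) was held by 47 of 83 reads in EDL, 56.6% (45.3 to 67.5), against 54 of 57 in soleus, 94.7% (85.4 to 98.9), a difference of -38.1 points (adjusted p = 3.54e-05, Fisher's exact test). Full-length reads brought the libraries together, at 926 of 999 in EDL (92.7%) and 1141 of 1148 in soleus (99.4%), a difference of -6.70 points. The reads lacking the part were 36 consensus reads in EDL and 3 in soleus.

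Svil encodes supervillin, which binds actin and myosin at the membrane. Its part 30, a 96-nt exon, was held by 63 of 64 reads in EDL, 98.4% (91.6 to 99.96), against 57 of 73 in soleus, 78.1% (66.9 to 86.9). Use was 20.4 points higher in EDL (adjusted p = 0.021, Fisher's exact test), and 70 of 73 heart reads held the exon. This call was the least firm of the 5. It was lost when p-values were adjusted without Ttn, Neb and Nrap, and full-length reads gave 147 of 148 in EDL and 176 of 198 in soleus, a difference of 10.4 points.

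Among parts outside Ttn, Neb and Nrap that missed the call, the widest differences were in Ppp1r12b, Amotl1, Spag9 and Nedd4. Ppp1r12b encodes MYPT2, the targeting subunit of myosin phosphatase in heart and skeletal muscle. Its neighbouring parts 8 and 9 (chr1:134765897-134766077) lie on the same reads, 27 of 30 in EDL, 90% (73.5 to 97.9), and 29 of 52 in soleus, 55.8% (41.3 to 69.5). The difference was 34.2 points (adjusted p = 0.128, Fisher's exact test), and in the heart 1 of 19 reads held them. The authors' deposited list of artifacts holds part 8 and not part 9.

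Amotl1, an angiomotin relative at cell junctions, had part 18 (chr9:14614734-14615000, 267 nt) in 12 of 32 EDL reads, 37.5% (21.1 to 56.3), and in 3 of 43 soleus reads, 6.98% (1.46 to 19.1), with an adjusted p of 0.233 in Fisher's exact test. By full-length reads it was 134 of 258 in EDL (51.9%) and 5 of 269 in soleus (1.86%). Spag9, the JNK-binding scaffold JIP4 that also holds kinesin and dynein, kept its printed 39-nt exon in 26 of 47 EDL reads, 55.3% (40.1 to 69.8), and in 24 of 31 soleus reads, 77.4% (58.9 to 90.4), with an adjusted p of 1 in Fisher's exact test. Full-length reads gave 50 of 111 in EDL (45.05%) and 49 of 57 in soleus (86.0%). Nedd4, a ubiquitin ligase, had an unannotated stretch of 6724 nt, part u-001, in 42 of 80 EDL reads, 52.5% (41.0 to 63.8), and in 23 of 72 soleus reads, 31.9% (21.4 to 44.0), with an adjusted p of 1 in Fisher's exact test. By full-length reads it was 313 of 1566 in EDL (19.99%) and 79 of 2271 in soleus (3.48%). In the heart 0 of 41 reads held it.

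Tested on full-length reads, 14 parts (0.616%) in 12 genes passed, 10 more used and 4 less used in EDL, and 2 of them, those of Abcc9 and Phka1, passed both ways. Ppp1r12b, Amotl1 and Spag9 were among the rest. Those of 1 consensus read also carry the same exons, so these p-values are too small and are not given. Kif1b, Mast2 and Opa1, also printed above, passed by full-length reads alone.

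Kif1b, a kinesin that carries mitochondria and vesicle precursors, held its 42-nt exon in 48 of 68 EDL reads, 70.6% (58.3 to 81.0), and in 40 of 69 soleus reads, 58.0% (45.5 to 69.8). Full-length reads widened this to 287 of 341 in EDL (84.2%) and 218 of 417 in soleus (52.3%). Mast2, a microtubule-associated kinase, held its 21-nt exon in 17 of 33 EDL reads, 51.5% (33.5 to 69.2), and in 17 of 46 soleus reads, 37.0% (23.2 to 52.5). By full-length reads it was 115 of 157 in EDL (73.2%) and 77 of 262 in soleus (29.4%), and 0 of 20 heart reads held it.

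Opa1, the GTPase that fuses inner mitochondrial membranes, is known to be made in several spliced forms. Its 111-nt exon was held by 23 of 47 reads in EDL, 48.9% (34.1 to 63.9), against 27 of 44 in soleus, 61.4% (45.5 to 75.6), with 171 of 399 full-length reads in EDL (42.9%) and 177 of 263 in soleus (67.3%). For these 3 exons the consensus intervals of the muscles overlapped. Others that passed by full-length reads alone were Synm part 6, Zfp106 part 37 and Gpam part 21. Gpam part 21 changed direction between the counts, with 18 of 95 EDL and 18 of 75 soleus consensus reads, a difference of -5.05 points, and with 633 of 1408 EDL and 153 of 1301 soleus full-length reads, a difference of 33.2 points. The plot of named parts sets both counts side by side.

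**Figure D5:**
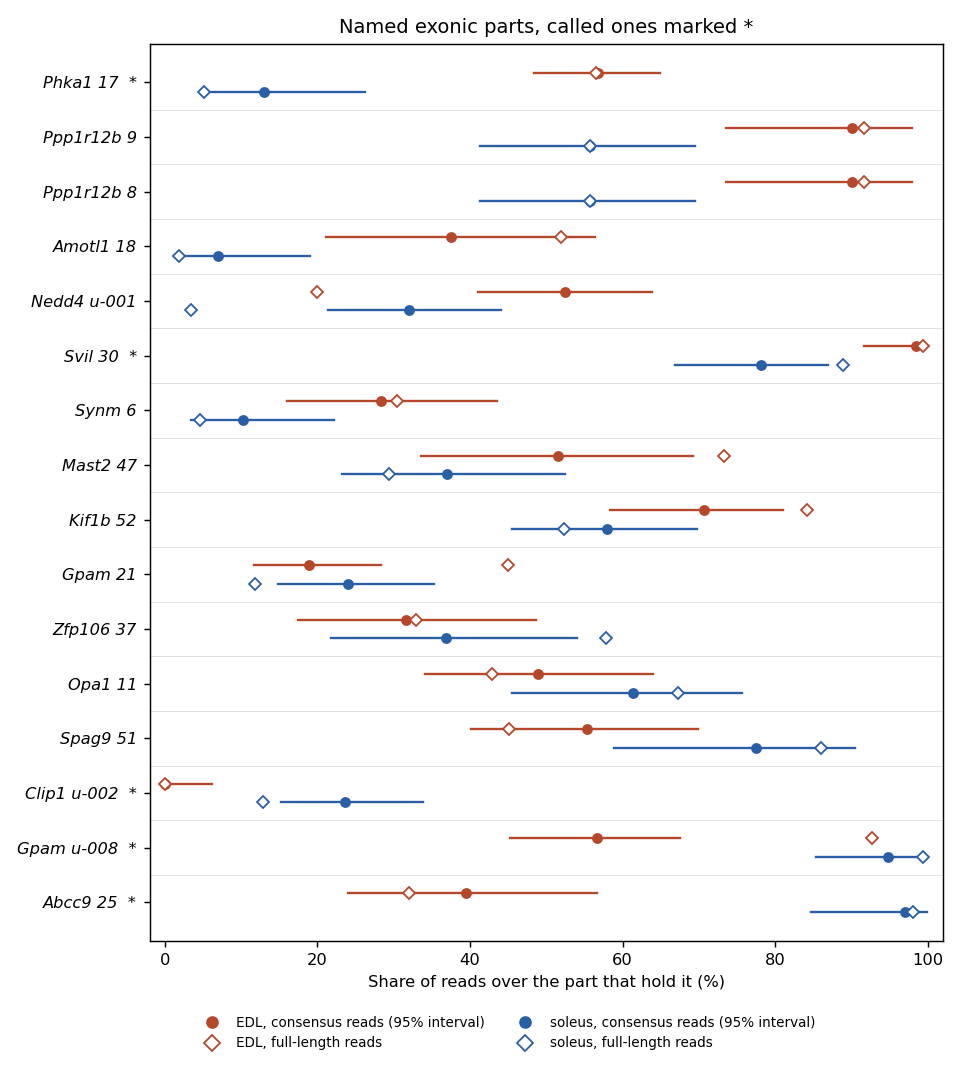
Share of reads over each named exonic part that hold it (x axis, %). Filled circles with 95% intervals are consensus reads and open diamonds full-length reads, orange for EDL above blue for soleus, and an asterisk marks parts called on consensus reads. EDL and soleus are apart by both counts for Phka1 and Abcc9, whereas the diamonds of Gpam u-008 lie close together.

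Trip12, AI314180, Pde4dip and Lmo7 had many parts tested and none called. Trip12, a ubiquitin ligase, had 74 parts tested, covered by 33 to 52 EDL and 31 to 47 soleus reads, and its widest difference was 19.1 points. AI314180 had 65, with a widest difference of 1.72 points. Lmo7, an adaptor of actin and the nuclear envelope, had 58, with 13 of 35 EDL and 22 of 39 soleus reads at its most different part. Pde4dip, the myomegalin anchor of centrosome and sarcomere, had 61, with 137 of 176 EDL and 159 of 251 soleus reads at its most different part, 14.5 points.

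Of the parts absent from the annotation, 78 of 92 (84.8%) differed by under 10 points, against 2150 of 2181 annotated parts (98.6%). At 10% to 90% use in at least 1 library were 23 of 92 (25%) against 86 of 2181 (3.94%). In Neb, set apart from the totals, 14 of 94 parts were called, 1 more used and 13 less used in EDL. In Nrap 1 of 52 parts was called, more used in EDL, and in Ttn 1 of 61, less used in EDL. The Nrap call was lost when parts with 20 covering reads were let in.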

How the data were processed

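Iso-Seq, which reads cDNA from end to end, was applied to 1 library of whole EDL and 1 of whole soleus. The labels' protocols name mirVana for RNA, SMARTer with barcoded primers for cDNA, and BluePippin selection of 5 to 10 kb. The authors deposited raw counts of consensus reads per gene name, made with htseq-count on alignments to mm10 per the deposited protocol. STAR 2.5.0am and GRCm38 are named in the submitters' processing notes. For 686 genes with at least 10 consensus reads in a library, names ending in Rik removed, the authors deposited counts of consensus and full-length reads that cover or hold each exonic part (parts from the annotation script of DEXSeq, release 85, counted with exCOVator), per the same protocol. In 1 gene tested a spreadsheet had turned the name into a date. Of all consensus reads, 8.92% in EDL and 8.64% in soleus fell in no single gene and were left out.

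Gene ratios were computed here on reads scaled to a common total of reads in genes (RPM), with exact conditional binomial 95% intervals, a floor of 3 counts at 0, and calls as given above. Shares have Clopper-Pearson intervals. Parts were tested with Fisher's exact test and Benjamini-Hochberg adjustment over 2480 parts, and the procedures were tested on simulated data. The simulated reads were drawn independently, so they do not cover the merging of reads or the spread between animals. Named were all genes called beyond 2-fold, the 15 with the largest ratio each way among those off equal abundance, list members off equal abundance or with most reads, every called part, the 5 widest that missed, and the 5 genes with most parts and none called. Results for a few of these genes are not reported here. Parts called on full-length reads alone were named after their values were seen. The members and the 21 gene lists were chosen with earlier results of these data known. Exon sequences are from GENCODE M21 transcripts. Alternatives were other scalings (median of ratios, TMM from edgeR 4.0.16 in R 4.3.3), read minimums, full-length reads and other bars on parts. Python 3.11.15 with numpy 2.4.6, pandas 2.3.3, scipy 1.17.1 and matplotlib 3.10.9 was used.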

Additional observations from a re-analysis of the deposited data

Results flagged for a closer look

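Reads that entered no comparison were held by both libraries. In the EDL library 859 consensus reads lay in no annotated gene and 1013 in more than 1 gene. In the soleus library 601 lay in no annotated gene and 988 in more than 1 gene. They were singled out because they are signal outside the genes compared, and the series has no control library to set them against.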

How the results depend on the processing

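No paired analysis was possible because each muscle had 1 library, and for the same reason no replicate could be left out. The 2 genes higher and 7 lower in EDL beyond 2-fold became 5 and 6 with median-of-ratios scaling, whose factor was 1 for each library. They became 2 and 3 with at least 50 reads in the pair, and 69 and 24 with full-length reads. The 24 genes higher and 36 lower in EDL off equal abundance became 15 and 18 with at least 50 reads, 40 and 51 with no minimum, and 251 and 71 with full-length reads (each gene's best covered part, 610 genes). Of the 60 genes off equal abundance, 54 kept the call with median-of-ratios scaling, 60 with TMM and 59 without the 10 most abundant genes. The median log2 ratio was 0.50 over 610 genes by full-length reads, against -0.06 over 494 genes by consensus reads. With this shift the log2 ratio of 16 named genes changed sign. It became 1.22 for Akap6, 0.74 for Clasp2, 0.68 for Col4a1, 1.38 for Dysf, 0.85 for Fbxo40 and 0.32 for Gpam. It became -0.92 for Myh1, 0.50 for Myh6, 0.82 for Myo18a, 0.30 for Myom1 and 0.91 for Opa1. For Rbm20 it was 0.87, for Son 1.72, for Sptb 0.42, for Ttn -0.032 and for Ubr3 1.16. Those of Gpam, Myh1, Myh6, Myom1, Sptb and Ttn lay below the full-length median. Of the 16, Ttn alone had been off equal abundance by consensus reads, and its full-length interval included equal abundance. Pde4dip turned to -0.69 with consensus reads over its best covered part, an alternative chosen after seeing the data. Of exonic parts outside the 3 giant genes, 2 more used in EDL became 10 with full-length reads, 1 with at least 50 covering reads and 1 with p-values adjusted without those genes. The 3 less used in EDL became 1 with annotated parts alone, also chosen after seeing the data. Ttn had 2 called parts with full-length reads, and Nrap 0 with at least 20 covering reads. Gpam part 21 turned to 33.2 points with full-length reads. The causes of these shifts were not tested. Depth limits the genes at the minimum most: 20 reads in the pair could pass the 2-fold bar at a split as uneven as 1 EDL and 19 soleus reads of Cyfip2.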

Other observations

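The gene count and the cover of exonic parts disagreed for 2 of 482 genes by more than 1.5 times. Pde4dip had 19 reads in EDL and 14 in soleus by gene name, but 178 in EDL and 253 in soleus over its best covered part, 1.61-fold lower in EDL (1.33 to 1.97). Nedd4 had 39 reads in EDL and 51 in soleus by gene name, and 81 in EDL and 75 in soleus over its best covered part, a ratio of 0.951 (0.686 to 1.32). For 448 genes the best covered part held no more reads than the gene count.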
